A study of Mus musculus with 18 samples.

Results

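The genes described here are 44 genes of focal adhesions and the contractile actin cytoskeleton, counting Srf and its cofactors Mkl1 and Mkl2, chosen by name. Earlier results of these data were known when they were chosen. All 44 were found among the 21937 genes of the deposited table, and all 44 were among the 12393 genes tested, those whose mean over the libraries reached 10 normalized reads. They were followed in NIH3T3 cells, an established line of mouse embryonic fibroblasts, by single-end RNA-seq. Every group had been exposed to 100 nM dexamethasone, a synthetic glucocorticoid that resets the circadian clock of cultured cells, for 2 h, and 0 h was the return to normal culture medium. Harvests at intervals of 4 h up to 32 h gave 9 times with 2 libraries each, 18 in all, numbered as replicate 1 and replicate 2. No library of cells without dexamethasone was analysed here, so the levels before the pulse are unknown and an effect of the drug, of the fresh medium and of time in culture cannot be told apart. The sources do not say whether the replicates came from separate cultures. The p-values measure only the spread between these libraries.

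Focal adhesions are protein plaques that tie integrin receptors, which grip the extracellular matrix, to actin stress fibres inside the cell. Stress fibres are bundles of actin filaments pulled by non-muscle myosin II, stabilised by tropomyosins and held together by crosslinkers such as filamin and alpha-actinin. Many genes for these parts are transcribed by serum response factor (SRF), which binds a DNA element called the CArG box. Its cofactors, the myocardin-related transcription factors (MRTFs), are held by unpolymerised actin and are released to the nucleus when actin is driven into filaments. Serum in the medium is a known trigger of that release.

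A normalized read is a read count divided by a factor for its library, so values of a gene can be compared between libraries but not between genes of different length. Pairs of values are given in the order replicate 1 and replicate 2, changes are differences of log2(value + 1), and p-values come from limma's moderated tests with Benjamini-Hochberg adjustment over all genes tested. The libraries held 25.4 to 38.9 M reads. With libraries rescaled to equal totals the median log2 change of all genes was 0.03 for 4 h against 0 h and 0.22 for 32 h against 0 h, where it was -0.00 and 0.01 as deposited, so changes are read against this shift. Of the genes that passed at 16 h against 0 h, 51.2% were higher as deposited and 80.4% after that rescaling. All 9 fibroblast markers examined were present, and their summed level was 853909.7 to 1230076 normalized reads over the libraries.

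Each member had its highest mean at 0 h or 4 h. The highest of the 9 time means fell at 0 h for 34 members and at 4 h for the other 10, namely Vcl, Fhl1, Csrp2, Lasp1, Myh9, Tagln, Tagln2, Cnn3, Tpm3 and Actn1. Among all tested genes 22.5% had their highest mean at 0 h and 19% at 4 h. The lowest mean came at 24 h for 13 members, at 28 h for 14 and at 32 h for 6, against 6.56%, 8.21% and 14.4% of all tested genes. Of the 44 members 41 differed among the 9 times by limma's F test, against 52.0% of all tested genes, and Parva, Mylk and Cnn1 did not pass. With the replicate number as a block 43 passed, against 72.3% of all tested genes, and Cnn1 alone did not. The median range between the highest and lowest of the 9 means was 0.94 log2 for the members and 0.45 for all tested genes, and 20 members spanned at least 2-fold, against 13.5% of all tested genes.

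**Figure D1:**
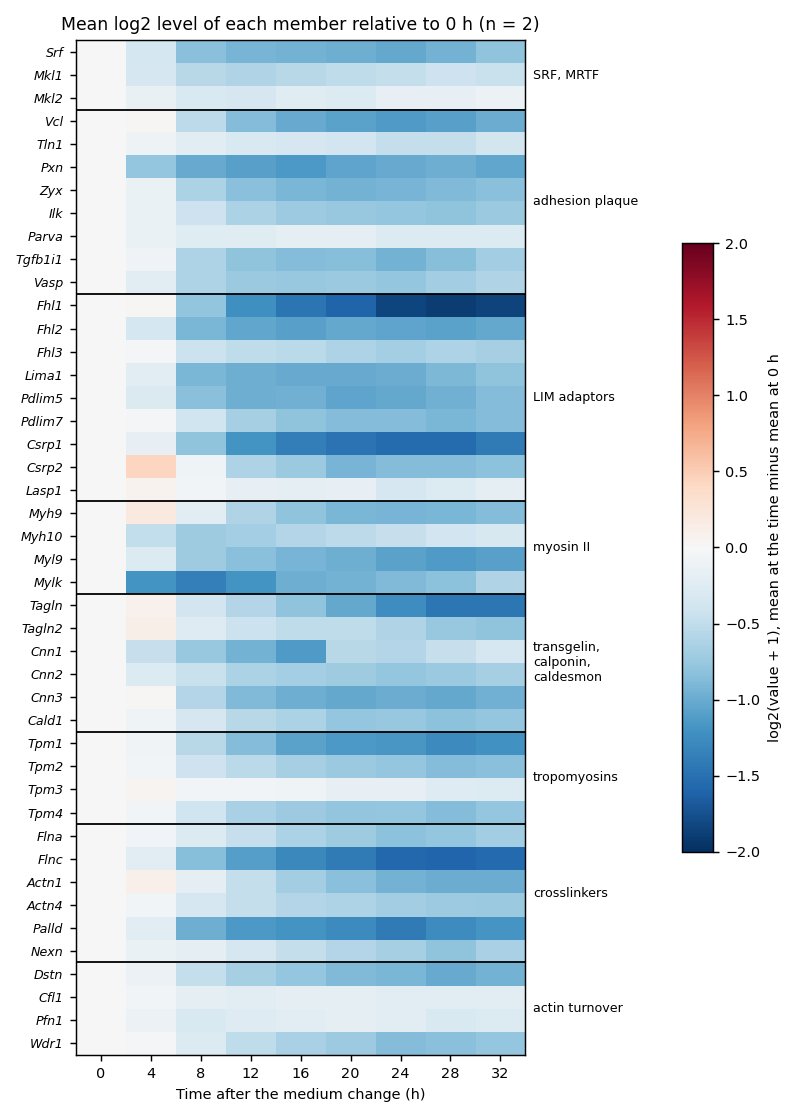
Log2 change of each of the 44 members from its mean at 0 h (colour scale, log2 units) at the 9 times in hours after the medium change, rows grouped by role, mean of 2 libraries per cell. Most rows turn lower from 8 h and stay lower to 32 h, with Fhl1 reaching -1.85 at 32 h, while Cfl1, Pfn1 and Tpm3 change little.

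At 8 h 35 members were lower than at 0 h, against 17.1% of all tested genes, and 9 did not pass. At 16 h 40 were lower, against 17.8%, at 24 h 40, against 18.6%, and at 32 h 39, against 20.4%. With the replicate block these counts were 40, 43, 43 and 42, against 24.7%, 24.9%, 24.9% and 27.1% of all tested genes in that fit. Rescaling to equal totals gave 25, 36, 35 and 35, and quantile normalization 22, 33, 33 and 32. Of all genes called with equal totals, 77.7%, 80.4%, 81% and 81% were higher, so the shares above do not apply to those counts. Here and below, no share of all tested genes called lower is given for equal totals or quantile normalization. In these 4 comparisons limma called 0 members higher, 0 had an unadjusted p under 0.05 in that direction, and edgeR and DESeq2 each called 0 higher. Between 17.3% and 20.5% of all tested genes were higher in them. Against 0 h the median member change was -0.44 for 8 h, -0.75 for 16 h, -0.86 for 24 h and -0.79 for 32 h. The median of all tested genes lay between -0.00 and 0.01. With equal totals the members' medians were -0.30, -0.56, -0.66 and -0.57. Both libraries at 16 h lay below both libraries at 0 h for all 44 members, and this held for 33.6% of all tested genes. Within replicate 1 the median member changed by -0.84 at 16 h, and within replicate 2 by -0.64. These comparisons share the 0 h libraries, and bulk RNA does not tell fewer expressing cells from less RNA per cell.

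The comparison of 28 h with 4 h leaves out the 0 h libraries and sets the same hour of 2 successive days side by side. It gave 37 lower members, against 20.7% of all tested genes, and a median of -0.72. Here limma called 0 members higher, against 20.6% of all tested genes, 0 had an unadjusted p under 0.05 in that direction, and edgeR and DESeq2 called 0. Rescaling to equal totals called Mkl2 higher, at 0.17 (adjusted p = 0.0402), where the median of all tested genes was 0.19. The replicate block called Mylk higher, at 0.39 (adjusted p = 0.000246), where 27.1% of all tested genes were higher in that fit. The 7 members that did not pass were Mkl1, Mkl2, Pxn, Parva, Myh10, Mylk and Cnn1. With the replicate block Pxn (-0.20, adjusted p = 0.0066) and Parva (-0.13, adjusted p = 0.047) passed as lower. That fit called 39 members lower, against 26.9% of all tested genes. Equal totals gave 33 lower members and quantile normalization 31.

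**Figure D2:**
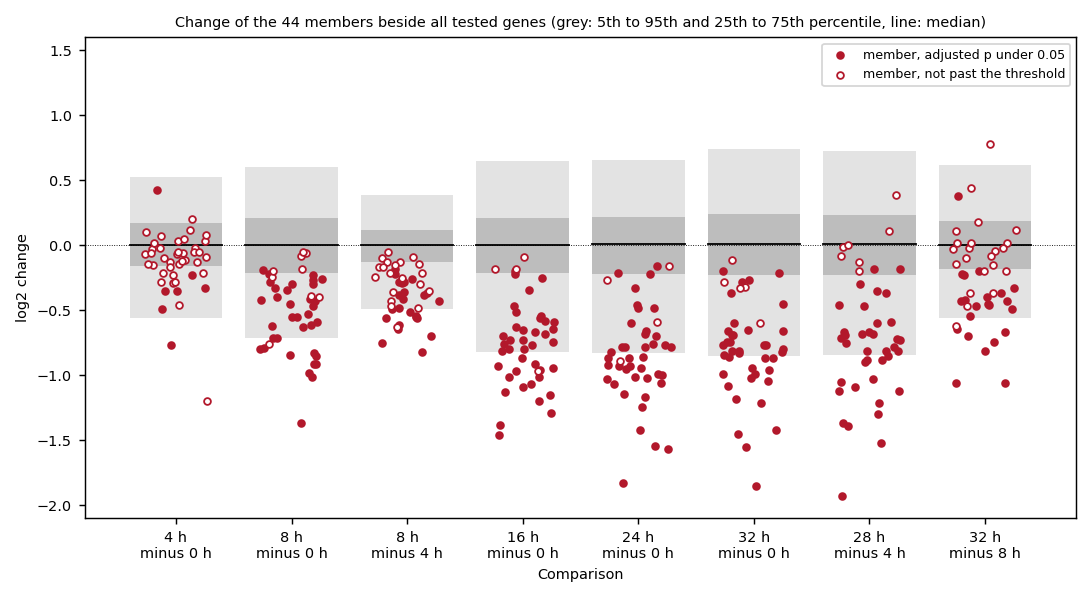
Log2 change of the 44 members (points) in each of 8 comparisons between times, beside the spread of all 12393 tested genes (5th to 95th and 25th to 75th percentiles). In the comparisons of 8 h or later with 0 h, and of 28 h with 4 h, the points lie mostly below the middle of all genes; at 16 h against 0 h the members' median is -0.75 and that of all genes 0.00.

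Srf encodes the transcription factor itself, and its level dropped over the first 12 h. Srf was at 5196 and 5786 normalized reads at 0 h, 4091 and 4541 at 4 h, 3074 and 3108 at 8 h and 2711 and 3057 at 12 h. For Srf the later pairs were 2702 and 3002 at 16 h, 2654 and 2899.9 at 20 h, 2567 and 2813 at 24 h, 2947 and 2784 at 28 h and 3305 and 2956 at 32 h. Srf was lower in both libraries of every later time than in both at 0 h, with changes of -0.83 ± 0.09 (SE, adjusted p = 9.81e-06) at 8 h and -0.94 ± 0.09 (SE, adjusted p = 1.61e-06) at 16 h. Mkl1 encodes MRTF-A, and it too was highest at 0 h. The Mkl1 libraries of 0 h held 9152 and 9047, those of 4 h 7374 and 7061, those of 8 h 6112 and 6289.8 and those of 12 h 5845 and 6128 normalized reads. Later Mkl1 pairs were 6094 and 6259 at 16 h, 6089 and 6717 at 20 h, 6664 and 6394 at 24 h, 6801 and 6808 at 28 h and 6544 and 6818 at 32 h. Both Mkl1 libraries of 4 h were already below both of 0 h, and the change was -0.33 ± 0.06 (SE, adjusted p = 0.0009) at 4 h and -0.56 ± 0.06 (SE, adjusted p = 2.74e-06) at 16 h. The Mkl1 mean was lowest at 12 h, and at 28 h its difference from 4 h did not pass (-0.08, adjusted p = 0.237). Mkl2 encodes MRTF-B and moved least of the 3 genes. Mkl2 was at 1497 and 1582 normalized reads at 0 h, 1337 and 1430.0 at 4 h, 1176 and 1331 at 8 h and 1176 and 1257 at 12 h. For Mkl2 the later pairs were 1268 and 1326 at 16 h, 1256 and 1280.5 at 20 h, 1362 and 1400.2 at 24 h, 1355 and 1391 at 28 h and 1423 and 1421 at 32 h. Its fall passed at 8 h (-0.30, adjusted p = 0.00386) and 16 h (-0.25, adjusted p = 0.0106), and its change at 24 h was -0.16 ± 0.07 (SE, adjusted p = 0.0862), or adjusted p = 0.0231 with the replicate block. Rescaling to equal totals moved the median of all tested genes to 0.14 at 8 h, 0.19 at 16 h and 0.21 at 24 h against 0 h. The Mkl2 falls are small beside that shift. The same rescaling called Mkl2 higher at 28 h than at 4 h, where the median of all tested genes was 0.19.

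Because SRF binds the CArG box, the promoter windows of the members were searched for it. RefSeq windows of 300 bases, from 250 before to 50 after the annotated start, were matched by symbol for 38 of the 44 members in the build GRCm38.p6, a later build than the mm9 of the deposited data. Csrp2, Nexn, Parva, Pxn, Tagln and Tgfb1i1 were not matched. The CArG box, searched by its standard consensus, occurs on both strands alike since it is its own reverse complement. It was found for 7 of the 38 matched members, or 18.4%, against 1.6% of the 9732 tested genes with a window and 1.81% of all 27025 genes with one. A gene counted if any of its windows held the box, and a gene with more annotated starts could have more windows. The stretches around the boxes of these 7 members are shown because they hold the element that SRF binds. They run 5′ to 3′ along the gene and the CArG boxes are in capitals.
Srf, chr17:46556175-46556284 (- strand): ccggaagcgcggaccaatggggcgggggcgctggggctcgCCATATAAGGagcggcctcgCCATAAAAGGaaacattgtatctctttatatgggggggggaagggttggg
Vcl, chr14:20929148-20929220 (+ strand): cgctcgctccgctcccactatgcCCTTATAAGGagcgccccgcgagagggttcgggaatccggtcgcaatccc
Fhl1, chrX:56779541-56779630 (+ strand): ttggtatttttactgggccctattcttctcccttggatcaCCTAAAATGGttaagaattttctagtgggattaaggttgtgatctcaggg
Fhl2, chr1:43163962-43164032 (- strand): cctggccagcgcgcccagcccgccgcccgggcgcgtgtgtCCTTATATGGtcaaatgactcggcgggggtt
Lima1, chr15:99820150-99820236 (- strand): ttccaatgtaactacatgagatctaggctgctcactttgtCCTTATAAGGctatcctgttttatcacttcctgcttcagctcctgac
Myl9, chr2:156775263-156775352 (+ strand): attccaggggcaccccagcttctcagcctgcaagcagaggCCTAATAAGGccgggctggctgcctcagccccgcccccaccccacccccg
Cnn2, chr10:79988504-79988593 (+ strand): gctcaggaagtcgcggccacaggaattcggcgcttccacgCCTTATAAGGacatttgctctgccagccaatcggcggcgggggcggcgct
Srf's own promoter held 2 boxes, beginning 82 and 62 bases before the start. In Vcl the box began 227 bases, in Fhl1 102, in Fhl2 31, in Lima1 47, in Myl9 161 and in Cnn2 56 bases before the start, and a window at another Fhl2 start held a further box 96 bases before it. Vcl, Lima1 and Cnn2 had the same box, CCTTATAAGG. At 16 h against 0 h the median change was -1.01 over the 7 members with a box and -0.70 over the 31 matched members without one, and at 32 h against 8 h it was -0.20 and -0.33. For 28 h against 4 h, which leaves out the 0 h libraries, the medians were -0.72 and -0.71. These medians are descriptions with no test. The motif CATTCC, the core bound by TEAD factors, was found on either strand for 12 of the 38 matched members, or 31.6%, against 14.5% of the tested genes, counted by gene in the same way. It can overlap a CArG box only in its CC, or in GG on the other strand. A match says only that these letters lie in the window, and a missing match says nothing of binding elsewhere.

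Of the 8 genes for focal adhesion plaque proteins 7 fell by 16 h, with a median of -0.82, and Parva did not pass. Vcl encodes vinculin, which links talin to actin under tension. Vcl was at 31829 and 31351 normalized reads at 0 h, 32418 and 32109 at 4 h, 21851 and 21933 at 8 h and 17640.1 and 17123 at 12 h. For Vcl the later pairs were 14881 and 16594 at 16 h, 14359.5 and 15754 at 20 h, 13872 and 14737 at 24 h, 14357 and 15369.7 at 28 h and 16126 and 15780.0 at 32 h. Vcl was highest at 4 h, just above 0 h, and all libraries from 8 h on lay below both of 0 h and 4 h. Its changes were 0.03 ± 0.06 (SE, adjusted p = 0.77) at 4 h, -0.56 ± 0.06 (SE, adjusted p = 9.62e-05) from 4 h to 8 h and -1.01 ± 0.06 (SE, adjusted p = 4.16e-08) at 16 h against 0 h. Pxn encodes paxillin, a scaffold for adhesion kinases, and had the largest change of this group at 4 h. The Pxn libraries of 0 h held 3873 and 3677, those of 4 h 2229.7 and 2188, those of 8 h 1950.2 and 1787 and those of 12 h 1894 and 1653 normalized reads. Later Pxn pairs were 1885 and 1542 at 16 h, 1844 and 1774 at 20 h, 1967 and 1791 at 24 h, 2007 and 1841 at 28 h and 1878 and 1795 at 32 h. Both Pxn libraries of 4 h were far below both of 0 h, and replicate 1 was above replicate 2 at all 9 times. The change was -0.77 ± 0.09 (SE, adjusted p = 7.41e-05) at 4 h and -1.15 ± 0.09 (SE, adjusted p = 4.44e-07) at 16 h, and from 4 h to 8 h it was -0.24 ± 0.09 (SE, adjusted p = 0.114), adjusted p = 0.00433 with the replicate block. Zyx encodes zyxin, which gathers actin assembly factors at strained stress fibres. Zyx was at 24971 and 23703 normalized reads at 0 h, 22068 and 22269.5 at 4 h, 15853 and 15609.7 at 8 h and 13517 and 13704 at 12 h. For Zyx the later pairs were 13123 and 12729 at 16 h, 12361 and 12793 at 20 h, 12901 and 12619 at 24 h, 13620.1 and 12831 at 28 h and 14043 and 13385 at 32 h. Zyx libraries from 12 h on lay between 12361 and 14043, below all earlier ones, and the change at 16 h was -0.91 ± 0.05 (SE, adjusted p = 1.23e-08).

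Vasp, an actin polymerase partner of zyxin, changed by -0.23 ± 0.05 (SE, adjusted p = 0.0059) at 4 h and -0.76 at 16 h. Tgfb1i1, which encodes the paxillin relative Hic-5, fell by 16 h from 6945 ± 90.4 to 3809.9 ± 404 (SD, n = 2), a change of -0.87. Ilk, integrin-linked kinase, changed by -0.73 and Tln1, the talin that activates integrins, by -0.34 at 16 h, and both passed. Parva, the parvin that binds integrin-linked kinase, went from 16164 ± 907 to 14324 ± 1599.7 (SD, n = 2) between 0 h and 16 h (log2 change -0.18, adjusted p = 0.31), and with the replicate block the adjusted p was 0.0091. With equal totals the Parva change was 0.01 (adjusted p = 0.942).

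The LIM domain adaptors sit along stress fibres and at adhesions, and 8 of 9 fell by 16 h with a median of -0.96. Fhl1, a four-and-a-half LIM protein, had the widest range of all members, 3.81-fold between its highest and lowest mean. The Fhl1 libraries of 0 h held 124583 and 109130.2, those of 4 h 114747 and 122676, those of 8 h 64031 and 70992 and those of 12 h 45342 and 54463 normalized reads. Later Fhl1 pairs were 35791 and 49987 at 16 h, 34802 and 42448 at 20 h, 29169 and 37071 at 24 h, 27724 and 34968 at 28 h and 31330.5 and 33347 at 32 h. The Fhl1 libraries of 4 h and 0 h overlapped, and both replicates were lower at each later time up to 24 h than at the time before, with replicate 2 above replicate 1 at 8 of the 9 times. The change was -0.79 ± 0.16 (SE, adjusted p = 0.00216) at 8 h, -1.46 ± 0.16 (SE, adjusted p = 9.11e-06) at 16 h and -1.83 ± 0.16 (SE, adjusted p = 1.04e-06) at 24 h. Csrp1, a cysteine-rich protein of actin bundles, was also lower from 8 h on. Csrp1 was at 21615 and 23283 normalized reads at 0 h, 17601 and 22671 at 4 h, 11226 and 14767 at 8 h and 8425 and 11436 at 12 h. For Csrp1 the later pairs were 7166 and 10381 at 16 h, 6889 and 9381 at 20 h, 6731 and 8823 at 24 h, 6674 and 8920.4 at 28 h and 7768 and 9061 at 32 h. Replicate 2 was the higher Csrp1 library at all 9 times, and every library from 8 h on lay below the 4 of 0 h and 4 h. The change at 16 h was -1.38 ± 0.22 (SE, adjusted p = 0.000239). Csrp2, its smooth muscle relative, had its highest values at 4 h. The Csrp2 libraries of 0 h held 1873 and 1573, those of 4 h 2362 and 2272, those of 8 h 1586 and 1664 and those of 12 h 1116 and 1128 normalized reads. Later Csrp2 pairs were 1024 and 1029 at 16 h, 907 and 895 at 20 h, 921 and 952 at 24 h, 905 and 972 at 28 h and 916 and 1037 at 32 h. Both Csrp2 libraries of 4 h were above both of 0 h, a rise of 0.43 ± 0.08 (SE, adjusted p = 0.00208). Of the members, Csrp2 alone was called higher at 4 h than at 0 h by limma on the values as deposited, without rescaling or a replicate block. At 8 h its difference from 0 h did not pass (-0.08, adjusted p = 0.48), and by 16 h it had changed by -0.74 ± 0.08 (SE, adjusted p = 7.13e-06).

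Fhl2, which binds SRF as well as integrins, was already lower at 4 h, by -0.35 ± 0.09 (SE, adjusted p = 0.0116), and went from 7906 ± 397 to 3730.1 ± 352 (SD, n = 2) by 16 h. Lima1 (EPLIN), which stabilises filaments, changed by -1.01, Pdlim5 by -0.96, Pdlim7 by -0.80 and Fhl3 by -0.54 at 16 h, and these passed. Pdlim5 and Pdlim7 carry a PDZ domain that binds alpha-actinin. Lasp1, an adaptor of zyxin and actin, had a 1.31-fold range. Its change was -0.18 ± 0.07 (SE, adjusted p = 0.0633) at 16 h, or adjusted p = 0.00624 with the replicate block, and its fall of -0.33 at 24 h passed (adjusted p = 0.00268) but was -0.12 (adjusted p = 0.152) with equal totals.

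All 4 genes of the myosin II group were lower at 8 h than at 0 h, though Myh9 did not pass with equal totals (a change of -0.08, adjusted p = 0.433) and its sign turned in 1 of 27 alternatives, and 3 of the 4 were lower at 16 h. Myh9 encodes the heavy chain of non-muscle myosin IIA, the main motor of stress fibres in fibroblasts. Myh9 was at 244647 and 227729.9 normalized reads at 0 h, 276534 and 265865 at 4 h, 209999 and 194127 at 8 h and 163859 and 147113 at 12 h. For Myh9 the later pairs were 135105 and 135851 at 16 h, 124889 and 126457 at 20 h, 126069 and 122005 at 24 h, 129582 and 120045 at 28 h and 135038 and 124378 at 32 h. Both Myh9 libraries of 4 h were the highest of the series, at 0.20 ± 0.08 (SE, adjusted p = 0.0797) against 0 h, and adjusted p = 0.00531 with the replicate block. It then fell, and the change at 16 h was -0.80 ± 0.08 (SE, adjusted p = 2.2e-06). Myh10, the heavy chain of myosin IIB, went from 29287 ± 4149 to 20756 ± 1771 (SD, n = 2) at 4 h, a change of -0.49 ± 0.13 (SE, adjusted p = 0.0144). At 8 h Myh10 was at its lowest mean, 17909, and at 32 h its mean was 23294. Myl9 encodes the regulatory light chain whose phosphorylation switches the motor on. The Myl9 libraries of 0 h held 35159 and 37725, those of 4 h 27156 and 32969, those of 8 h 19886 and 24923 and those of 12 h 17938 and 23143 normalized reads. Later Myl9 pairs were 16159.9 and 22584 at 16 h, 15924 and 21751 at 20 h, 14770.2 and 20490.1 at 24 h, 14473 and 18973 at 28 h and 16089 and 18527 at 32 h. Replicate 2 was above replicate 1 at all 9 times for Myl9, and the change was -0.93 ± 0.21 (SE, adjusted p = 0.00295) at 16 h. Mylk encodes the kinase that phosphorylates this light chain, and it had the largest difference between the replicates. Mylk was at 3907 and 6125 normalized reads at 0 h, 1601 and 2811 at 4 h, 1469.7 and 2423 at 8 h and 1597 and 2842 at 12 h. For Mylk the later pairs were 1734 and 3609.8 at 16 h, 1896 and 3391 at 20 h, 1909 and 3659 at 24 h, 2133 and 3621 at 28 h and 2631 and 3981 at 32 h. In each replicate Mylk at 4 h was under the same replicate's 0 h value, and the level at 32 h was the highest after 0 h in both. The change at 4 h was -1.20 ± 0.46 (SE, adjusted p = 0.0772), and adjusted p = 5.03e-10 with the replicate block. At 16 h it was -0.97 ± 0.46 (SE, adjusted p = 0.118) and adjusted p = 2.23e-09 with the block.

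**Figure D3:**
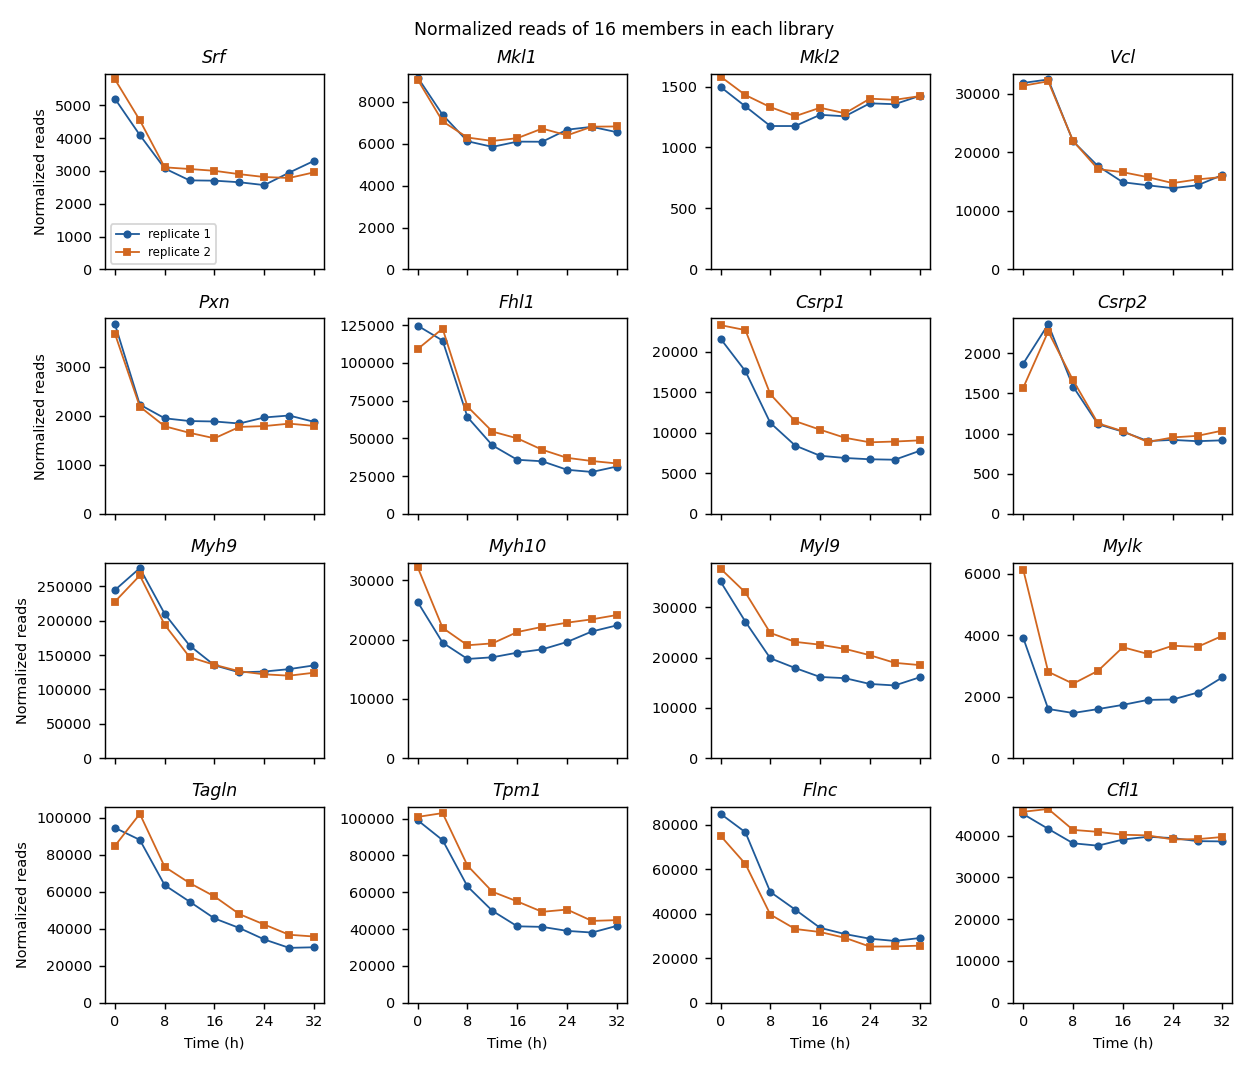
Normalized reads of 16 members in each of the 18 libraries against hours after the medium change, replicate 1 and replicate 2 drawn apart. Csrp2 and Myh9 are highest at 4 h in both replicates, Pxn drops between 0 h and 4 h, and Mylk is higher in replicate 2 at all 9 times.

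All 6 transgelin, calponin and caldesmon genes, whose products bind along actin filaments and of which some are abundant in smooth muscle, were lower at 16 h, with a median of -0.74. Tagln, transgelin or SM22, is a classical SRF target. The Tagln libraries of 0 h held 94475 and 84717, those of 4 h 87966 and 102055, those of 8 h 63472 and 73372 and those of 12 h 54562 and 64629 normalized reads. Later Tagln pairs were 45477 and 57363 at 16 h, 40299 and 47830.2 at 20 h, 34120.2 and 42171 at 24 h, 29571 and 36659 at 28 h and 29884 and 35698 at 32 h. Both Tagln libraries of 28 h and of 32 h lay below both of 16 h, and the change went from -0.81 ± 0.15 (SE, adjusted p = 0.000869) at 16 h to -1.45 ± 0.15 (SE, adjusted p = 4.96e-06) at 32 h against 0 h. Cnn3, is the calponin of non-muscle cells. Cnn3 was at 21993 and 22565 normalized reads at 0 h, 20569.7 and 24808 at 4 h, 13496 and 16236 at 8 h and 11254 and 13027 at 12 h. For Cnn3 the later pairs were 10351 and 12530.0 at 16 h, 10406 and 11469 at 20 h, 9935 and 12456 at 24 h, 10160.2 and 11635 at 28 h and 10929.6 and 11921 at 32 h. The Cnn3 libraries from 8 h on lay below the 4 earlier ones, and the change was -0.97 ± 0.13 (SE, adjusted p = 5.7e-05) at 16 h. Cnn1, calponin of differentiated smooth muscle, had the fewest reads of the members. The Cnn1 libraries of 0 h held 37 and 56.3, those of 4 h 31 and 34.8, those of 8 h 29.1 and 24.1 and those of 12 h 16.1 and 33.2 normalized reads. Later Cnn1 pairs were 14 and 29.4 at 16 h, 30.9 and 30.6 at 20 h, 31 and 28.9 at 24 h, 26.8 and 40.2 at 28 h and 43.2 and 30.3 at 32 h. The Cnn1 libraries of 4 h and 8 h lay below both of 0 h, while the 32 h libraries overlapped those of 0 h. The change was -1.13 ± 0.37 (SE, adjusted p = 0.0286) at 16 h and -0.59 ± 0.37 (SE, adjusted p = 0.236) at 24 h, and the F test over the 9 times gave an adjusted p of 0.275. Cald1, caldesmon, changed by -0.64, Cnn2 by -0.68 and Tagln2 by -0.51 at 16 h, and Tagln2 went on to -0.81 at 32 h.

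Tropomyosins wind along actin filaments and set which motors and severing proteins can bind, and 3 of the 4 genes fell by 16 h. Tpm1 gives the high molecular weight forms found on stress fibres, among others. Tpm1 was at 99139 and 100983 normalized reads at 0 h, 88339.9 and 103057 at 4 h, 63141 and 74474 at 8 h and 49883 and 60277 at 12 h. For Tpm1 the later pairs were 41466 and 55000.5 at 16 h, 41160.3 and 49346 at 20 h, 38982 and 50589 at 24 h, 38071 and 44406 at 28 h and 41699.7 and 44835 at 32 h. Every Tpm1 library from 8 h on was below the 4 earlier ones, with a change of -1.07 ± 0.16 (SE, adjusted p = 9.8e-05) at 16 h. Tpm2 is the gene for beta-tropomyosin. The Tpm2 libraries of 0 h held 34332 and 34584, those of 4 h 31699 and 34519, those of 8 h 24624 and 26989 and those of 12 h 22781 and 24569 normalized reads. Later Tpm2 pairs were 20248 and 23321 at 16 h, 19335 and 22122 at 20 h, 18194 and 22269.5 at 24 h, 18276 and 19552 at 28 h and 18552 and 19851 at 32 h. The Tpm2 mean was lowest at 28 h, with replicate 2 the higher library each time, and changed by -0.67 ± 0.10 (SE, adjusted p = 0.000124) at 16 h. Tpm4 gives a short form. Tpm4 was at 32279 and 34679 normalized reads at 0 h, 28608 and 36456 at 4 h, 22547 and 28505 at 8 h and 18982 and 24030.1 at 12 h. For Tpm4 the later pairs were 18353 and 22218 at 16 h, 18629 and 19982 at 20 h, 17422 and 21649 at 24 h, 17061 and 19803 at 28 h and 18738 and 20422 at 32 h. Replicate 2 of Tpm4 was higher throughout, and the change was -0.40 ± 0.15 (SE, adjusted p = 0.057) at 8 h, adjusted p = 2.25e-05 with the replicate block, and -0.73 ± 0.15 (SE, adjusted p = 0.00183) at 16 h. Tpm3 gives short forms that are also found outside stress fibres. It went from 12147 ± 352 to 11376 ± 59.1 (SD, n = 2) between 0 h and 16 h (log2 change -0.09, adjusted p = 0.219), a change that was 0.10 (adjusted p = 0.161) with equal totals. At 24 h its fall of -0.16 passed (adjusted p = 0.0453) and turned to 0.05 (adjusted p = 0.47) with equal totals.

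All 6 crosslinker and bundler genes were lower at 16 h, with a median of -0.66. Flnc encodes filamin C, the muscle-type filamin. Flnc was at 84843 and 74979 normalized reads at 0 h, 76523 and 62297 at 4 h, 49708 and 39556 at 8 h and 41767 and 33055 at 12 h. For Flnc the later pairs were 33572 and 31700.1 at 16 h, 30779 and 29088 at 20 h, 28681 and 25140.0 at 24 h, 27689 and 25204 at 28 h and 28985 and 25568 at 32 h. Flnc was lower in replicate 2 at all 9 times and fell by 16 h in both, with a change of -1.29 ± 0.13 (SE, adjusted p = 4.33e-06), reaching -1.57 ± 0.13 (SE, adjusted p = 6.25e-07) at 24 h. Palld encodes palladin, a scaffold of alpha-actinin on stress fibres. The Palld libraries of 0 h held 7482 and 7959, those of 4 h 6299 and 6901, those of 8 h 3696 and 4130.0 and those of 12 h 3110.4 and 3874 normalized reads. Later Palld pairs were 3066 and 3685 at 16 h, 2871 and 3566 at 20 h, 2639 and 3136 at 24 h, 3103 and 3347 at 28 h and 3400.0 and 3423 at 32 h. The largest step of Palld was from 4 h to 8 h, -0.75 ± 0.13 (SE, adjusted p = 0.00162), and the change at 16 h was -1.20 ± 0.13 (SE, adjusted p = 4.89e-06). Actn1 encodes an alpha-actinin that bundles stress fibres. Actn1 was at 87351 and 75447 normalized reads at 0 h, 90936 and 83486 at 4 h, 75957 and 67503 at 8 h and 60110.5 and 56013 at 12 h. For Actn1 the later pairs were 50726 and 49446 at 16 h, 46455 and 45073 at 20 h, 43427 and 41318 at 24 h, 42234 and 39743 at 28 h and 41869 and 39724 at 32 h. Actn1 differed from 0 h by -0.18 ± 0.08 (SE, adjusted p = 0.0985) at 8 h, adjusted p = 0.00402 with the replicate block, by -0.70 ± 0.08 (SE, adjusted p = 1.27e-05) at 16 h and -0.99 ± 0.08 (SE, adjusted p = 4.24e-07) at 32 h. Actn4, the other non-muscle alpha-actinin, changed by -0.59 at 16 h. Nexn, nexilin of stress fibres and adhesions, changed by -0.47. Flna, filamin A, went from 269072 ± 6854 to 174539.6 ± 8386 (SD, n = 2), a change of -0.63 ± 0.07 (SE, adjusted p = 1.19e-05) and with equal totals -0.43 (adjusted p = 0.000185), while quantile normalization turned its sign at 24 h, at 32 h and between 4 h and 28 h. Quantile normalization gives each rank the same value in every library. It can therefore hide a fall of a gene near the top of the ranks, and Flna had the highest mean of the members.

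The 4 actin turnover genes had the smallest median change of the role groups at 16 h, -0.43, and all 4 passed. Dstn encodes destrin, which strips actin from filaments. The Dstn libraries of 0 h held 47702 and 51078, those of 4 h 40253 and 52142, those of 8 h 31269 and 40608 and those of 12 h 27023 and 35882 normalized reads. Later Dstn pairs were 25624 and 32748 at 16 h, 25690.3 and 28076 at 20 h, 22989.6 and 29576 at 24 h, 22796 and 26379 at 28 h and 24739 and 26824 at 32 h. Replicate 2 of Dstn was higher at each time and the change was -0.77 ± 0.17 (SE, adjusted p = 0.003) at 16 h. Wdr1 is the partner that helps cofilin cut filaments. Wdr1 was at 26919 and 24885 normalized reads at 0 h, 25602 and 25324 at 4 h, 22037 and 20539 at 8 h and 18508 and 17969.9 at 12 h. For Wdr1 the later pairs were 16258 and 16831 at 16 h, 15476 and 15869 at 20 h, 14163 and 14416 at 24 h, 14509 and 14474 at 28 h and 15697 and 14640.3 at 32 h. Wdr1 kept its 4 h level near that of 0 h and then declined, with a change of -0.65 ± 0.06 (SE, adjusted p = 9e-07) at 16 h. Pfn1, profilin, feeds actin monomers to growing ends. The Pfn1 libraries of 0 h held 22066 and 21182, those of 4 h 19465 and 20457, those of 8 h 17565 and 17596 and those of 12 h 17725 and 18307 normalized reads. Later Pfn1 pairs were 18549.6 and 18655 at 16 h, 19193 and 18863 at 20 h, 19062 and 18096 at 24 h, 17693 and 17456 at 28 h and 17588 and 17950.2 at 32 h. Pfn1 libraries from 8 h on lay below those of 0 h, with a change of -0.22 ± 0.05 (SE, adjusted p = 0.00313) at 16 h that was -0.03 (adjusted p = 0.671) with equal totals. Cfl1, cofilin, which severs filaments, spanned a 1.17-fold range. It changed by -0.20 ± 0.06 (SE, adjusted p = 0.0262) at 16 h and by -0.01 (adjusted p = 0.934) with equal totals. For Cfl1, Pfn1 and Tpm3, which have close copies in the genome, how reads shared between copies were counted is not given in the sources used here.

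In the first interval, 0 h to 4 h, 6 members were lower, against 10.5% of all tested genes, and Csrp2 was higher, against 11.0%. The 6 were Pxn, Myh10, Srf, Fhl2, Mkl1 and Vasp. With the replicate block 17 members were lower and 2 higher, against 18.8% of all tested genes in each direction, and the 2 were Csrp2 and Myh9. The 11 that the block added were Mkl2, Zyx, Parva, Lima1, Pdlim5, Myl9, Mylk, Cnn2, Flnc, Palld and Pfn1. The calls of Srf, Vasp, Fhl2 and Myh10 were lost without replicate 1 of 4 h and without replicate 2 of 0 h, each of which left 2 lower members, Mkl1 and Pxn. In the second interval, 4 h to 8 h, 24 members were lower, against 6.41% of all tested genes, with a median of -0.36. There limma, edgeR and DESeq2 called 0 members higher and 0 had an unadjusted p under 0.05 in that direction, against 4.84% of all tested genes called higher. The largest steps were Fhl1 (-0.82), Palld (-0.75), Lima1 (-0.70) and Flnc (-0.64). Without replicate 2 of 4 h the count was 15, and it was also 15 with quantile normalization. With the replicate block it was 36, against 13.7% of all tested genes in that fit.

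The comparison of 32 h with 8 h was added once the time course had been seen. It showed 21 members lower, against 14.1% of all tested genes, and 1 higher, against 13.5%. Quantile normalization left 13 lower, and the replicate block gave 29, against 21.1% of all tested genes in that fit. The largest falls were those of Fhl1 (-1.06), Tagln (-1.06), Actn1 (-0.81) and Csrp2 (-0.74). Srf, by contrast, was at 3091 at 8 h and 3130.5 at 32 h (log2 change 0.02, adjusted p = 0.914). The higher gene was Myh10, at 0.38 ± 0.13 (SE, adjusted p = 0.0375), a call lost without either library of 32 h or without replicate 1 of 8 h. The replicate block added Mkl2 (0.18, adjusted p = 0.0104), Lima1 (0.12, adjusted p = 0.042) and Mylk (0.78, adjusted p = 1.15e-07) as higher, where 21.2% of all tested genes were higher in that fit.

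The series was made to follow circadian rhythm, as its title says, so each member was also fitted with a wave of 24 h. None of the 44 passed by limma (0 members, against 0.371% of all tested genes), and edgeR called 0 and DESeq2 1, Mkl1, with an adjusted p of 0.0476. At an unadjusted p under 0.05 there were 7 members, against 17.0% of all tested genes, namely Mkl1, Mkl2, Pxn, Lima1, Myh10, Cnn1 and Pfn1. When a straight drift over time was added to the wave, 19 members passed, against 17% of all tested genes, and for 18 of them the fitted peak lay between 1.05 and 6.11 h, while that of Pfn1 was at 22.5 h. The series holds 1 full period and part of another. A wave and a drift together can also follow levels that hold at first, fall and then stay low. The 19 calls therefore do not tell a rhythm from such a course. Without the libraries of 0 h and 4 h the wave alone gave 0 members, as it did with all libraries. That fit had no drift term, so it does not bear on the 19 calls, and no share of all tested genes is given for it.

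The replicates differed for many members. Allowing for time, 22 members were higher in replicate 2, against 20.0% of all tested genes, and 6 were lower, against 17.9%. The median member difference was 0.07 log2 and that of all tested genes -0.00. Mylk had the largest, 0.80 ± 0.04 (SE, adjusted p = 9.4e-12), followed by Csrp1 at 0.37 and Myl9 at 0.34. Replicate 2 was the higher library at all 9 times for 13 members, Parva, Lima1, Pdlim5, Csrp1, Myh10, Myl9, Mylk, Cnn3, Tpm1, Tpm2, Tpm4, Palld and Dstn. It was the lower at all 9 times for 3, Pxn, Flnc and Actn1. No share of all tested genes is given for these patterns, so they are not read as particular to the members. The falls after 0 h were seen in each replicate by itself, since all 44 members were lower at 24 h than at 0 h in both, with medians of -0.94 and -0.79, and 39.3% of all tested genes were lower in both. What the replicate number stands for is not given, and its part in these differences was not tested.

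**Figure D4:**
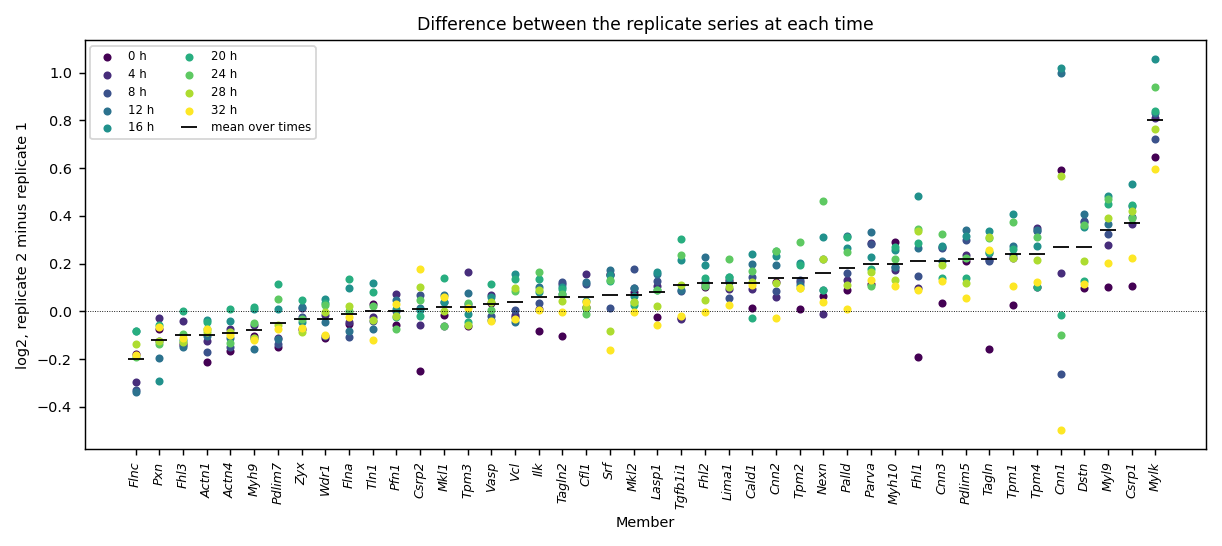
Difference replicate 2 minus replicate 1 (log2) of each of the 44 members at each of the 9 times. Mylk lies highest, with a mean difference of 0.80, and Flnc, Pxn and Actn1 lie below 0 at all 9 times.

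Around the members, further genes of the same machinery were listed by role and compared between 16 h and 0 h, where 17.8% of all tested genes were lower and 18.7% higher. Of 23 other focal adhesion genes 14 fell and 2 rose, Nck1 (0.36) and Sorbs3 (0.26). Among them Tns1, tensin, fell 2.11-fold and the kindlin gene Fermt2 2.03-fold. Of 23 other actin and myosin genes 18 fell and 5 did not pass, Ablim1, Pdlim1, Pdlim2, Synpo and Twf1. Nck1, Sorbs3 and these 5 were chosen for naming after their values were seen. Acta1, skeletal alpha-actin, fell 2.7-fold, and the class I myosins Myo1e and Myo1c fell 1.57-fold and 1.45-fold. All 16 tested genes of a list of SRF and MRTF targets fell, with a median of -1.03. These lists were chosen with earlier results of these data known, so their counts are not independent of the data. Itga5, the fibronectin receptor subunit, went from 241782 ± 26074 to 55139.9 ± 2276 (SD, n = 2, 4.37-fold, adjusted p = 1.98e-09). Ctgf went from 140297 ± 17239 to 24725 ± 129.6 (SD, n = 2, 5.65-fold, adjusted p = 3.13e-09) and Cyr61 from 87543 ± 13051 to 28636 ± 1375 (SD, n = 2, 3.04-fold, adjusted p = 7.7e-08), and both encode matricellular proteins that are also known targets of YAP and TEAD.

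Markers of other cell types were followed beside these results. Of 7 smooth muscle markers 6 had a mean of at least 10, with a summed level of 361887 to 399127 normalized reads at 0 h, 198724 to 252158 at 16 h and 161362 to 182296 at 32 h. Acta2 made up most of it, at 337848 at 0 h and 153925 at 32 h, while Myh11 had a mean of 22 over all libraries and Myocd, which drives the smooth muscle programme, a mean of 1.92. Des, desmin, was at 52.1 at 0 h and 86.2 at 32 h. Several of these markers are themselves actin genes controlled by SRF. Of 9 skeletal and heart muscle markers 3 had a mean of at least 10, with a sum of 5363 to 6496 at 0 h and 1061 to 1092 at 32 h, nearly all of it Acta1, and Myod1 and Myh7 were at 0 in all 18 libraries. Of 6 epithelial markers 3 had a mean of at least 10, with a sum of 901 to 1196 at 0 h and 215 to 244 at 32 h, most of it Krt8 (935 and 148). Of the 5 neural markers 4 were in the table and 2 had such a mean, with a sum of 844 to 931 at 0 h and 548 to 582 at 32 h. The 5 endothelial markers summed to 57.7 to 72.2 and 37.4 to 66.8 at these times and the 6 leukocyte markers to 302 to 355 and 348 to 375, with Kdr and Cd3e at 0 in all libraries. The fibroblast markers also summed lower later, at 1158343 to 1230076 at 0 h and 876851 to 935400.2 at 32 h. The largest parts at 0 h were Fn1 (413036 at 0 h and 279159 at 32 h) and Col1a1 (286652 and 218063). Pdgfrb had a higher mean at 32 h (13108) than at 0 h (11159), and the other fibroblast markers had lower ones. The part of cell identity in the members' changes was not tested.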

How the data were processed

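RNA-seq of NIH3T3 cells was deposited as 1 table of normalized values for 18 libraries. Per the submitters' processing notes TopHat, HTSeq and DESeq were used with the genome build mm9, and versions, annotation and strand setting are not given in the sources used here. The deposited values are a signal that, judged from the values, the authors made by dividing gene counts by 1 factor per library: dividing each column by the value of 1 read gave whole reads to within 0.00611 reads (tolerance 0.02), 25.4 to 38.9 M per library.

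Values were tested as log2(value + 1) with limma 3.58.1 in R 4.3.3, with a mean for each of the 9 times, a variance trend, 12393 genes with a mean of at least 10, and Benjamini-Hochberg adjustment at 0.05, two-sided. Contrasts compared times, and further fits held a 24 h wave or a term for the replicate number. Recovered reads were tested with edgeR 4.0.16 and DESeq2 1.42.0. The scripts were tested on simulated data. Other alternatives were a pseudocount of 10, no filter or a mean of at least 50, equal totals, quantile normalization, no variance trend, a replicate block and leaving out each library.

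The replicate number pairs libraries, as seen from the data: deviations from the time means correlated above 0.1 in all 36 pairs of times (0.23 to 0.502, median 0.345). The sources do not say what it marks.

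The members and lists were chosen with earlier results of these data known. All members are named. Values in every library are given for Srf, Mkl1 and Mkl2 and, in each other role, for the 3 members with the largest range of time means. Of each further list the 3 genes with the smallest F p-value are named. Some genes and 1 list under this rule are not reported here. Coordinates and sequences are RefSeq's for GRCm38.p6.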

Additional observations from a re-analysis of the deposited data

How the results depend on the processing

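Of 180 counts of members under other settings 161 stayed within 1.5 times the reported count and 19 did not, and of 360 counts with 1 library left out 353 did and 7 did not. Members lower at 16 h, 24 h and 32 h than at 0 h, and at 28 h than at 4 h, stayed within that margin in every alternative run. Of the members called lower, 30 of 40 at 16 h, 33 of 40 at 24 h and 32 of 39 at 32 h were called in every alternative. At 28 h against 4 h 30 of 37 were. Smaller shares held at 8 h, with 18 of 35 against 0 h and 12 of 24 against 4 h. Of calls in either direction, 3 of 7 held at 4 h against 0 h and 11 of 22 at 32 h against 8 h. Quantile normalization left 22 members lower at 8 h than at 0 h, 15 lower at 8 h than at 4 h and 13 lower at 32 h than at 8 h. At 4 h against 0 h 2 were higher with equal totals, quantile normalization and DESeq2, and at 28 h against 4 h 1 with equal totals and with quantile normalization. At 32 h against 8 h 3 were higher with equal totals and with quantile normalization, 2 with edgeR, and 0 with no filter and with no variance trend. For the 24 h wave DESeq2 called 1 member and the fit with a linear term 19. Leaving out 1 library gave 2 to 6 members lower at 4 h than at 0 h, 15 to 25 lower at 8 h than at 4 h, and 0 to 2 higher at 32 h than at 8 h. The cause of these moves was not tested.

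With the replicate number as a block 17 members were lower and 2 higher at 4 h than at 0 h, 1 was higher at 28 h than at 4 h and 4 were higher at 32 h than at 8 h. The block moved no other count of members by more than 1.5 times. In the comparisons of times it added calls and removed none. It brought Parva (adjusted p = 0.00178) and Mylk (adjusted p = 1.72e-10) past the F test and took no member below it.

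The F calls of 34 members were the same in every alternative. Cfl1 lost its call with equal totals (adjusted p = 0.99) and under 6 other alternatives, Lasp1, Tpm3 and Pfn1 under equal totals and quantile normalization, Flna (adjusted p = 0.624) and Myh9 (0.0543) under quantile normalization, and Mkl2 and Myh10 when a library was left out (0.055 and 0.0534 at most). Quantile normalization can hide a fall of genes as highly expressed as Flna and Myh9, so their lost calls do not decide whether they fell. Cnn1 had 14 to 56.3 normalized reads per library, while every other member had at least 895 in each, and the part of depth in its missing F call was not tested. With 2 libraries per time, calls rest on a spread shared by all times.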
